A study of Mus musculus with 3 samples.

Results

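The genes described here encode the proteins of the cytosolic ribosome. They were taken by symbol: entries beginning Rpl or Rps with a digit next, together with Rplp0, Rplp1, Rplp2 and Rpsa, and without pseudogene symbols (-ps) and the Rps6k kinases. Of 87 such symbols, 84 had at least 100 UMIs over the 3 tumours and were kept, out of 27999 entries in the tables. There were 50 Rpl symbols and 34 Rps symbols. The lowest total kept was 8834 UMIs (Rpl7l1), and the 3 symbols under the minimum were the paralogues Rpl39l with 20 UMIs, Rpl3l with 6 and Rpl10l with 4. The rule also takes in Rps19bp1, a nucleolar protein that binds Rps19 and is no part of the ribosome, and Rpl6l, which GENCODE annotates as a processed pseudogene. All 84 passed the filter on low counts used for the tests below.

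A ribosome has a large subunit, which forms peptide bonds, and a small subunit, which reads the messenger RNA. Rpl proteins belong to the large subunit and Rps proteins to the small one. The acidic stalk that recruits translation factors is built by Rplp0, Rplp1 and Rplp2. Transcripts of these genes begin with a C followed by a run of pyrimidines, the 5′ terminal oligopyrimidine tract, through which mTOR signalling and Larp1 control their translation. Ribosomal protein messages are abundant in dividing and growing cells.

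The cells were GFP+ cells sorted by flow cytometry from 3 brain tumours of mice, profiled with the 10x Genomics 3′ kit (v2), which tags each captured transcript with a unique molecular identifier (UMI). All 3 tumours carried H3f3a K27M (a histone H3.3 mutant), Pdgfra D842V (a growth factor receptor mutant) and Trp53 R270H (a p53 mutant), introduced at postnatal day 1-2 by electroporation of MADR constructs into mice of strain B6.129(Cg) with 1 copy of the allele Gt(ROSA)26Sortm4(ACTB-tdTomato,-EGFP)Luo, a reporter of tdTomato and GFP at Rosa26. The labels call the disease a paediatric glioma of the brain; tumours 1, 2 and 4 were collected at postnatal days 150, 106 and 149. There was 1 library for each tumour and no tumour-free control, so tumour, age and library cannot be told apart. Nothing in the labels gives the promoter behind each transgene. The main fit below takes out the mean level of each tumour. Its p-values measure how differences between cell classes vary between the 3 libraries, with 1 estimate for each gene shared by all classes. Some of the classes compared are in 2 libraries only.

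After filters, 3360 cells of tumour 1, 1548 of tumour 2 and 4377 of tumour 4 remained, from totals of 47120617, 15231673 and 53551127 UMIs. Cells were clustered without the ribosomal protein genes and the clusters named from marker lists; unnamed clusters held 751, 165 and 1248 cells. The reference class was non-cycling progenitor-like cells (oligodendrocyte progenitor markers such as Pdgfra, Cspg4 and Olig1), with 699, 57 and 950 cells. It was compared with cycling progenitor-like cells (843 in tumour 1, 1055 in tumour 4), non-cycling oligodendrocyte-like cells (249 in tumour 2, 41 in tumour 4), non-cycling astrocyte-like cells (24 in tumour 1, 120 in tumour 2) and myeloid-like cells (169, 397 and 81). Summed oligodendrocyte markers stood at 86838 and 36821 CPM (UMIs scaled to a common total for each tumour and class) in oligodendrocyte-like cells of tumours 2 and 4, against 4920 and 2736 in the progenitor-like cells beside them. Summed myeloid markers stood between 19611 and 38876 CPM in myeloid-like cells and between 129 and 910 in progenitor-like cells. Summed astrocyte markers were at 5701 and 2989 CPM in the astrocyte-like cells of tumours 1 and 2, against 302 and 879. Some 26, 17 and 31 barcodes of tumours 1, 2 and 4 also occurred in another tumour's table.

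The sequence at the transcription start is shown first, because the oligopyrimidine tract is the feature these genes are known to share. RefSeq starts on GRCm38.p6 were matched for 63 of the 84 genes. A C at the annotated start followed by 4 pyrimidines (C or T, transcript strand) was found in 14 of the 63 (22.2%), against 3.01% of all 27025 genes in the table and 0 of 68 matched mitochondrial ribosomal protein genes. Within 10 bases of the start, such a run was found in 37 genes (58.7%), against 34.4% of all genes and 45.6% of mitochondrial ribosomal protein genes, so the looser window separated the sets less. Translation factors known for such tracts had the run at the start in 1 of 12 matched genes (8.33%) and within 10 bases in 5 (41.7%). The set below holds some of the genes that results further on turn on, with the run in capitals. It is richer in runs than the 63 matched genes. No run lies within 10 bases of the start in Rpl13, Rpl10, Rpl5, Rpl11, Rplp0, Rps4x or Rps19bp1, which results below also treat. The last line has none within 10 bases of its start.
Rps6 at chr4:86857354-86857372, minus strand: cgggcCTCTTTTTCgtgac
Rpl15 at chr14:18270969-18270991, minus strand: gccttCTTCCTTTCCTCTggcgg
Rpl35a at chr16:33056477-33056494, plus strand: ccttcCTCTTTCCgccat
Rps27 at chr3:90213637-90213653, minus strand: tcgctCCTTTCCggcgg
Rps27rt at chr9:114982729-114982744, minus strand: ccttgCTTTCCggcgg
Rpl22l1 at chr3:28805506-28805523, plus strand: ccgttCTCTTCCCacggc
Rps26 at chr10:128626490-128626507, minus strand: cggatCCTCTTTCgagtc
Rpl36al at chr12:69184053-69184077, minus strand: ccgtcgctcaggttcagttccgact
In Rps6, Rpl15, Rpl35a, Rps27 and Rps27rt the run opened at the annotated start. In Rpl22l1 it opened 3 bases downstream of the start and in Rps26 it opened 4 bases downstream. Rpl35a has 3 annotated starts in the table, and the run stands at one of them.

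Ribosomal protein transcripts were a large part of each library. In non-cycling progenitor-like cells they took 28.2% of UMIs in tumour 1 (exact 95% binomial interval 28.1 to 28.2), 20.3% in tumour 2 (20.2 to 20.4) and 25.3% in tumour 4 (25.2 to 25.3). Over all kept cells the shares were 26.99%, 16.4% and 23.3%. Intervals cover counting error only, and with 1 library a tumour the differences between tumours have no replicate check. Tumour 1 was highest and tumour 2 lowest by either count. Progenitor-like cells of tumour 2 also had more immediate early transcripts (12895 CPM summed over the list, against 3313 and 6802 in tumours 1 and 4) and a higher median mitochondrial share (7.21% against 4.74% and 6.19%). The part of these in the lower ribosomal protein share was not tested.

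Levels of single genes spanned 100-fold within 1 class. A 3′ kit counts 1 end per transcript, so CPM was not scaled by transcript length. UMIs counted on near-identical copies, described below, are left out of a gene's CPM here. In tumour 1, for example, 37.0% of UMIs of Rplp0 plus its copy were on the copy. Levels of genes with such copies thus compare less well with those of other genes. In progenitor-like cells the mean over tumours ran from 72.9 CPM for Rpl7l1, a paralogue of Rpl7, to 7299 CPM for Rpl41, the smallest ribosomal protein. The next lowest were Rps19bp1 (84.6 CPM), Rps27rt (376), Rpl6l (399) and Rpl22 (604), so the span rests on few genes at the low end. The median gene had 2936 CPM. The 10 most abundant genes carried 21.6%, 21.3% and 23.6% of ribosomal protein UMIs in tumours 1, 2 and 4. Across the 84 genes, Pearson's r of log2 CPM was 0.873 between tumours 1 and 2, 0.932 between 1 and 4 and 0.887 between 2 and 4; the points share libraries and are given as a description. Of the 84, 56 were highest in tumour 1 and 57 lowest in tumour 2.

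**Figure D1:**
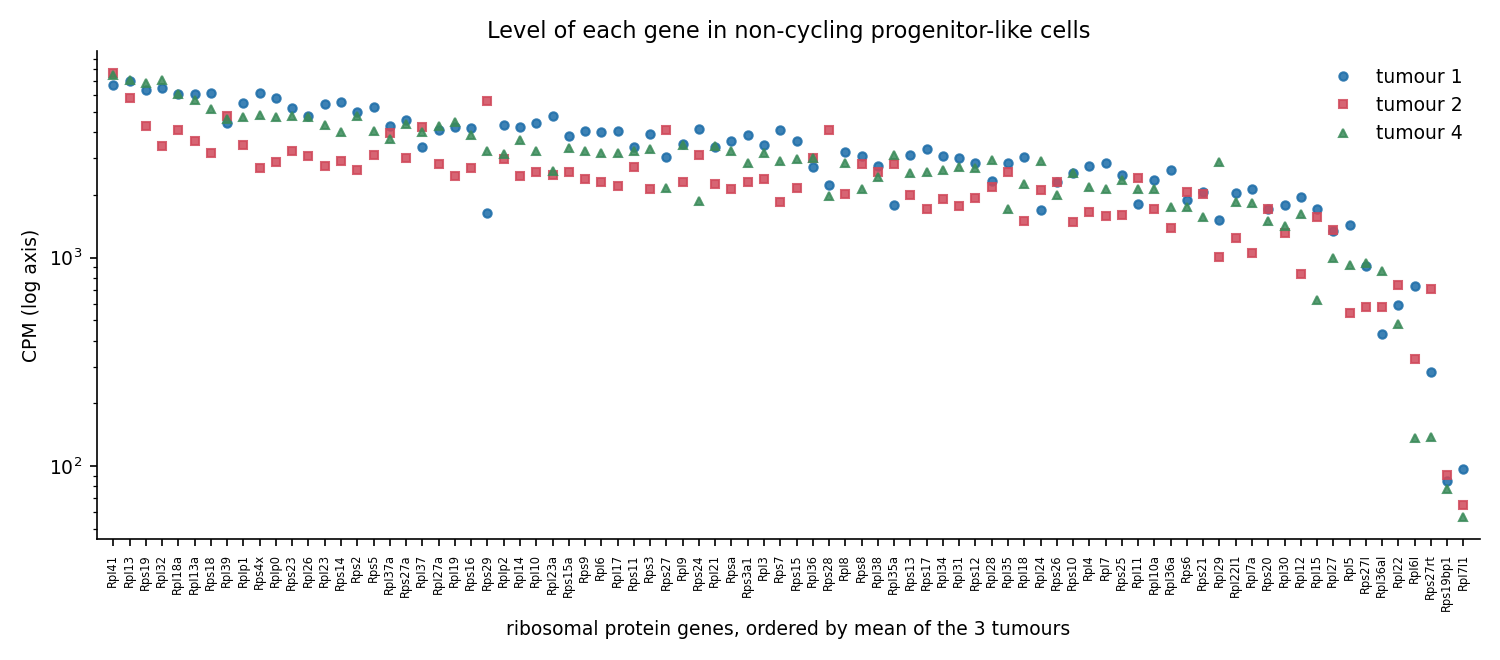
CPM (log axis) of each of the 84 genes in non-cycling progenitor-like cells, 1 point for each tumour, genes ordered by the mean of the 3 tumours. Most genes keep their place across tumours, while Rps29, Rpl29, Rpl6l and Rps27rt show the widest gaps between tumours.

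The ratio of the highest to the lowest tumour had a median of 1.67 and exceeded 2 for 16 genes. Rpl6l had the widest ratio, 5.40, with 735, 325 and 136 CPM in tumours 1, 2 and 4. Rps27rt, a retrogene whose 271 terminal bases are 100% identical to Rps27, stood at 283, 707 and 138 CPM, a ratio of 5.13. Because of that identity, UMIs of Rps27 and Rps27rt could be split between the 2 rows, and the values of Rps27rt are uncertain. Tumour 1 was the high one for Rpl6l and tumour 2 for Rps27rt.

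Rps29, a small zinc-binding protein of the small subunit, stood at 1631, 5653 and 3263 CPM in the order of tumours 1, 2 and 4, a ratio of 3.47. It was high in the tumour in which the class as a whole was low. Rpl15 stood at 1702, 1563 and 629 CPM (ratio 2.70), low in tumour 4. Rpl5, which with Rpl11 and 5S RNA binds Mdm2 and so stabilises p53, stood at 1431, 543 and 920 CPM (2.63), while its partner Rpl11 stood at 1802, 2403 and 2123 CPM. Rpl12 (ratio 2.34) and Rps4x (2.28) were lowest in tumour 2. At the other end, Rpl39 had 4443, 4792 and 4641 CPM, a ratio of 1.08, and Rpl36, Rpl38 and Rps20 had ratios of 1.11, 1.14 and 1.14.

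For some genes the difference between tumours changed when near-identical copies were counted with them. Of the 84 genes, 22 had 1 or more entries outside the set that matched at least 97% over at least 90 of their last 300 transcript bases, 32 copies in all. Over all barcodes, these copies held 600657, 127434 and 111591 UMIs in tumours 1, 2 and 4, or 4.73%, 5.14% and 0.909% of the set's own UMIs. Rpl29 is the clearest case: Gm10709, annotated as a processed pseudogene (chr9:7751725-7752204 in GENCODE on GRCm38) and 99.3% identical over 300 bases, held 44213, 8282 and 158 UMIs, beside 70165, 12245 and 139435 on Rpl29 itself. With copies added, Rpl29 in progenitor-like cells went from 1514, 1004 and 2876 CPM to 2523, 1750 and 2883 CPM, and its ratio between tumours from 2.87 to 1.65.

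The stalk gene Rplp0 had a like pattern. Its copy Gm8730 held 151189, 17768 and 13882 UMIs, so that 37.0% of UMIs of gene plus copy were on the copy in tumour 1, 36.3% in tumour 2 and 5.85% in tumour 4. For 19 of the 22 genes with copies, the share on copies in tumour 1 and in tumour 2 was above that in tumour 4. The exceptions were Rpl41, with 4.397%, 19.7% and 7.06% on its copy, Rpl7l1 and Rpl13a. For Rpl7l1, Rpl13a and Rplp2 the matching entries were the genes Madd, Flt3l and Wdr89. The own transcripts of these genes cannot be told apart from matches to the ribosomal protein genes. All their UMIs are in the totals of copies above, and Rplp2 is among the 19. Over the set, adding copies left the median ratio between tumours at 1.67, while the number of genes over 2-fold went from 16 to 17: Rpl29 left that group, and Rpl23a (2.24) and Rps18 (2.00) entered it. The cause of the difference between tumours was not tested.

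**Figure D2:**
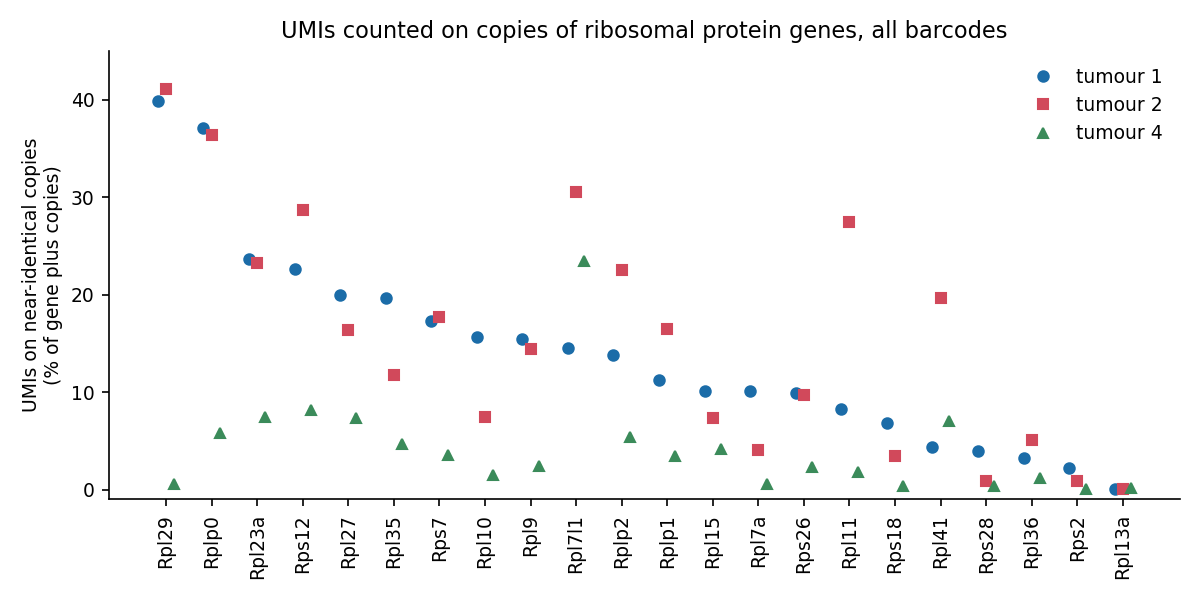
Percent of UMIs of each gene plus its near-identical copies that were counted on the copies (vertical axis), for the 22 genes with a copy outside the set, over all barcodes of tumours 1, 2 and 4. Rpl29 and Rplp0 are near 40% in tumours 1 and 2 and under 6% in tumour 4.

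Oligodendrocyte-like cells had the lowest share of ribosomal protein UMIs of the compared classes. The share was 8.42% in tumour 2 (interval 8.39 to 8.46) and 14.6% in tumour 4 (14.5 to 14.7), against 20.3% and 25.3% in the progenitor-like cells of the same tumours. The mean difference was -11.3 percentage points ± 0.82 (SD, n = 2 tumours). In oligodendrocyte-like cells the median mitochondrial share was 6.26% in tumour 2 and 8.27% in tumour 4, against 7.21% and 6.19% in progenitor-like cells. Immediate early transcripts were at 4305 and 3795 CPM against 12895 and 6802. Median UMIs per cell were 11562 and 8629 against 6060 and 8530. Summed progenitor markers were at 1324 and 2477 CPM against 4847 and 3618. The part of these in the difference was not tested. Astrocyte-like cells had 17.98% in tumour 1 (17.8 to 18.1) and 16.9% in tumour 2 (16.8 to 17.0), a mean difference of -6.79 points ± 4.81 (SD, n = 2). Their median mitochondrial share was above that of progenitor-like cells, at 5.61% against 4.74% in tumour 1 and 10.5% against 7.21% in tumour 2. Immediate early transcripts stood at 2070 against 3313 CPM and at 17660 against 12895 CPM, and in tumour 2 the astrocyte-like cells held 6524 CPM of oligodendrocyte markers, above their 2989 of astrocyte markers. The part of these in the lower share was not tested. Cycling progenitor-like cells had 26.4% in tumour 1 (26.3 to 26.4) and 22.9% in tumour 4 (22.8 to 22.9), a mean difference of -2.11 points ± 0.42 (SD, n = 2). Myeloid-like cells had 26.2% (26.1 to 26.3), 28.3% (28.3 to 28.4) and 23.3% (23.2 to 23.4) in tumours 1, 2 and 4.

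In each of the oligodendrocyte, astrocyte and cycling comparisons both tumours lay below the progenitor-like cells. The exact two-sided permutation test of the paired differences gave p = 0.5 for each, the smallest that 2 pairs allow. For myeloid-like cells the differences were -1.97, 8.05 and -1.94 points, so that tumour 2 went the other way from tumours 1 and 4, and the exact permutation p was 1, where 3 pairs allow 0.25. Without tumour 2 the mean myeloid difference was -1.95 points. The oligodendrocyte difference in tumour 4 was -1.33 points with finer clusters and -0.65 points when each cell was classed by its own marker UMIs (394 cells), a setting in which tumour 2 had no progenitor-like class. The cycling difference with coarser clusters was -1.29 points in tumour 1 and 0.42 in tumour 4, and tumour 2, which then had 33 cycling cells, stood at 1.23.

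**Figure D3:**
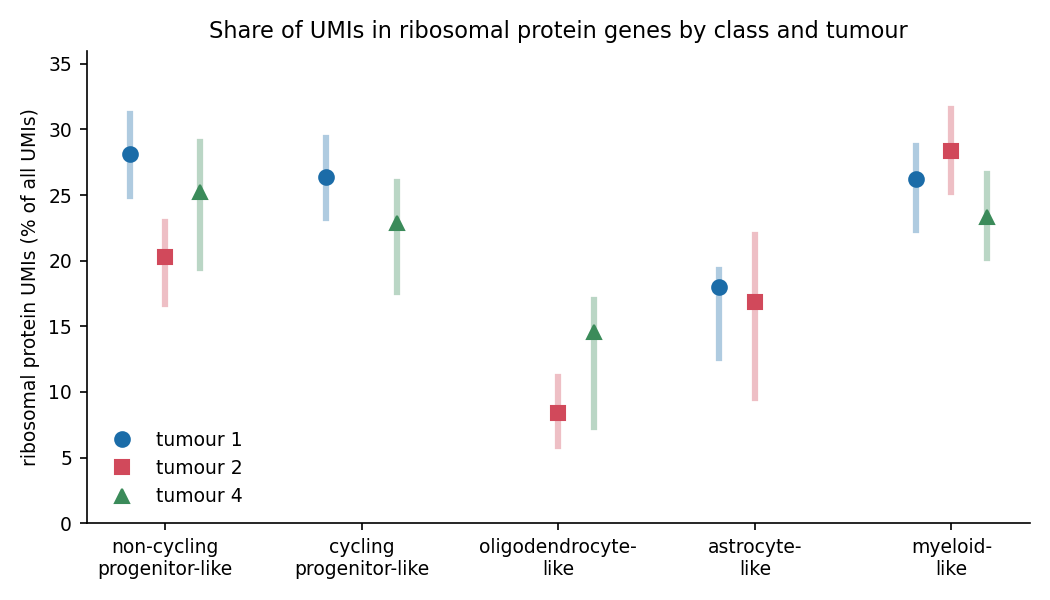
Percent of all UMIs in ribosomal protein genes (vertical axis) by class and tumour; points are the share of summed UMIs and bars the quartiles over cells, which are no replicates. Oligodendrocyte-like cells of tumours 2 and 4 sit at 8.42% and 14.6%, below the 20.3% to 28.2% of non-cycling progenitor-like cells.

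Within tumour 2, 5 clusters were named oligodendrocyte-like. Over their cells of all phases, not the non-cycling ones alone, the shares were 7.14%, 7.59%, 8.56%, 13.0% and 17.3%. The lowest were led by genes of mature myelin, including Opalin, Mal and Mog. The cluster at 17.3% was led by casein genes (Csn1s2a, Csn2). It had the lowest median depth of the 5 (4294 UMIs) and the highest median mitochondrial share (8.37%). The one at 13.0% was led by Gm7120, Gm26870 and Emilin1 and also had Txnip, Mdm2, Gdf15 and Bbc3 among its 10 leading genes. Cells named committed progenitors, with markers such as Gpr17 and Bmp4, had 15.3% in tumour 2 (215 non-cycling cells), between the progenitor-like and oligodendrocyte-like values of that tumour.

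Every one of the 84 genes had a lower CPM in oligodendrocyte-like than in progenitor-like cells in both tumours. The median log2 ratio of CPM was -1.24 in tumour 2 and -0.78 in tumour 4, against 0.07 and 0.06 over all genes with at least 50 UMIs. In the edgeR quasi-likelihood fit over all classes, with tumour as a block, the median log2 fold change was -1.06, against -0.03 over all 13092 genes tested. Of the 84, 5 were lower at a Benjamini-Hochberg adjusted p under 0.05 and 0 higher, where 3.82% of all genes were called lower and 7% higher; 80 had an unadjusted p under 0.05. The share called, 5 of 84, was near the background share.

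The 5 genes called lower were from both subunits. Rpl22l1, the paralogue of Rpl22, had 356 CPM in oligodendrocyte-like and 1243 in progenitor-like cells of tumour 2, and 956 and 1857 in tumour 4. Its log2 fold change was -1.36 (SE 0.37, edgeR adjusted p = 0.033). Rps19, needed for maturation of the small subunit and known for its mutation in Diamond-Blackfan anaemia, had 1279 and 4285 CPM in tumour 2 and 3495 and 6868 in tumour 4. Its log2 fold change was -1.36 (SE 0.40, adjusted p = 0.0463). Both genes were lower in the oligodendrocyte-like cells of each tumour, and the gap was wider in tumour 2.

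Rpl13 went from 5835 to 1578 CPM in tumour 2 and from 7110 to 3941 in tumour 4 (log2 fold change -1.35, edgeR adjusted p = 0.0498). Rpl15 went from 1563 to 571 and from 629 to 318 CPM (-1.29, adjusted p = 0.0372). Rps26 went from 2317 to 884 and from 1998 to 1088 CPM (-1.16, adjusted p = 0.0434). Rps4x, the small-subunit protein encoded on the X chromosome, had a fitted value of -1.49 with adjusted p = 0.0558 and did not pass. The smallest differences were those of Rpl36al, a paralogue of Rpl36a, with 494 and 577 CPM in tumour 2 and 652 and 865 in tumour 4 (-0.30, adjusted p = 0.569), and Rps19bp1 (-0.33, adjusted p = 0.544).

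Each of the 5 kept its sign in 19 alternatives, but the calls changed with many of them. Of the 19, Rpl22l1 kept its call in 11, Rpl15 in 10, Rps19 and Rps26 in 7 and Rpl13 in 6. These tallies take in fits in which the oligodendrocyte-like class has 1 sum, among them those without tumour 2 or tumour 4. Some other alternatives, such as the adding of copies, change little from the main fit. The tallies are thus no measure of support. A fit of the 2 classes alone, with 2 sums of each class, called 69 of the 84 lower (7.04% of all genes in that fit). DESeq2 called 31 (5.32% of all genes), and 0 were called without tumour 1 (2.13%). Without tumour 2 or tumour 4 the oligodendrocyte-like class has 1 sum, so a fit cannot measure its spread. The set's median log2 fold change was -0.94 without tumour 2 and -1.38 without tumour 4.

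In oligodendrocyte-like cells the fitted values of the set had quartiles of -1.16 and -0.97. The stalk genes Rplp1 and Rplp2 and the p53-linked Rpl5 and Rpl11 lay between them, and Rplp0 lay below. Log2 fold changes were -1.23 for Rplp0, -1.02 for Rplp1 and -1.10 for Rplp2 (adjusted p from 0.0643 to 0.128). Rpl5 had -1.04 and Rpl11 -0.98 (adjusted p = 0.0772 and 0.0723). Rpsa, the ribosomal protein also known as the laminin receptor, had -0.83, and Rps27a, made as a fusion with ubiquitin, had -0.82. None of these passed the test.

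In astrocyte-like cells 83 of the 84 genes had a lower CPM than in progenitor-like cells of tumour 1 and 78 of tumour 2. Median log2 ratios were -0.65 and -0.26, against 0.22 and -0.06 over all genes with at least 50 UMIs. The fit gave a median of -0.66 (-0.01 over all genes tested). By edgeR 0 genes were called in either direction (12 at an unadjusted p under 0.05; DESeq2 also called 0), where 0.512% of all genes were called higher and 0% lower. The widest values were those of Rps27rt (-1.02), Rpl10 (-0.99), Rps9 (-0.98) and Rplp0 (-0.95), with adjusted p from 0.426 to 0.454. Rplp0 stood at 2930 CPM against 5811 in tumour 1 and at 2057 against 2865 in tumour 2. Tumour 1 supplied 24 astrocyte-like cells. Without tumour 2 the fit has 1 astrocyte-like sum, and the set's median was -0.92 (-0.18 over all genes tested).

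In cycling progenitor-like cells of tumours 1 and 4 most genes stood slightly below non-cycling ones. CPM was lower than in non-cycling progenitor-like cells for 75 of 84 genes in tumour 1 and 81 in tumour 4, with median log2 ratios of -0.10 and -0.15, against 0.01 and -0.01 over all genes with at least 50 UMIs. The fit over all classes gave a median of 0.02, against -0.01 over all genes tested, so its sign differed from that of the CPM ratios within tumours. By edgeR 0 genes were called higher or lower, and 0 had an unadjusted p under 0.05; DESeq2 called 0 as well. Of all genes 2.98% were called higher and 0.00764% lower. A fit of the 2 classes alone, in which the set's median was -0.13, called 8 of the 84 lower, beside 9.52% of all genes in that fit. Over all neural clusters of the 3 tumours, a comparison chosen after seeing the data, edgeR called 0 of the 84 higher and 0 lower in cycling cells (0 at an unadjusted p under 0.05), where 4.51% of all genes were higher and 0.839% lower. By CPM in these cells, 76 of the 84 were lower in cycling cells of tumour 1 and 62 in tumour 4, while in tumour 2, which has too few cycling progenitor-like cells, 66 were higher. The median log2 ratios were -0.09, 0.12 and -0.04 in tumours 1, 2 and 4. The summed shares in tumour 2 were 15.1% in cycling and 12.3% in non-cycling neural cells. The mix of cell types differed between these pools. Oligodendrocyte-like clusters gave 26 of the 131 cycling and 249 of the 764 non-cycling cells, and clusters named neuroblast-like 57 and 29. The part of this in the tumour 2 difference was not tested.

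The genes with the highest values in cycling cells were Rps19bp1, with 98.5 against 85.1 CPM in tumour 1 and 94.0 against 77.8 in tumour 4, and Rpl7l1, with 102 against 96.8 and 74.1 against 56.9. With Rpl36al these were the 3 genes above progenitor-like cells in both tumours. Rpl10 and Rpl3, both of the large subunit, had the lowest: Rpl10 had 3549 against 4420 CPM and 2662 against 3258, and Rpl3 had 2916 against 3454 and 2642 against 3171. Fitted values ran from -0.15 for Rpl10 to 0.25 for Rps19bp1, and the lowest adjusted p was 0.953.

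In myeloid-like cells some ribosomal protein genes stood above progenitor-like cells and others below. CPM was higher than in progenitor-like cells for 20 of 84 genes in tumour 1, 74 in tumour 2 and 17 in tumour 4, with 14 genes higher and 10 lower in all 3 tumours. Median log2 ratios were -0.15, 0.46 and -0.17, against -0.17, -0.57 and -0.34 over all genes with at least 50 UMIs. The fit, whose TMM scaling centres on the bulk of genes, gave a median of 0.62 (0.00 over all genes tested); by library size alone the median of all genes was -0.46 and that of the set 0.07. Without tumour 2 the fitted median was 0.07.

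**Figure D4:**
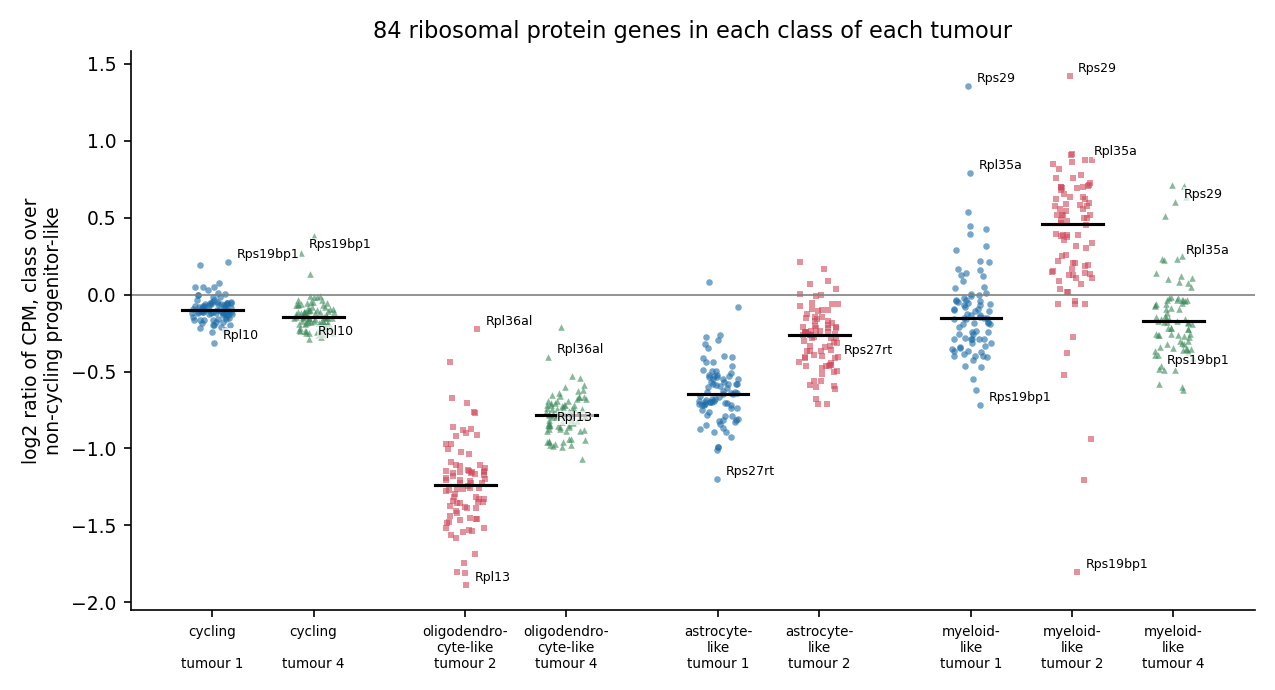
Log2 ratio of CPM in each class over non-cycling progenitor-like cells of the same tumour (vertical axis) for the 84 genes; each point is a gene and each black line the median. All points of the oligodendrocyte-like columns lie below 0, while in myeloid-like cells Rps29 and Rpl35a lie above 0 in the 3 tumours and Rps19bp1 below.

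By edgeR 5 genes were higher and 0 lower in myeloid-like cells (22 at an unadjusted p under 0.05; DESeq2 called 10 higher and 0 lower, beside 14.2% and 4.91% of all genes), where 14.2% of all genes were called higher and 3.3% lower. The count of 5 in 84 was under the background share. Rps29 had 4164 CPM in myeloid-like against 1631 in progenitor-like cells of tumour 1, 15108 against 5653 for tumour 2, and 4955 against 3263 for tumour 4. Its log2 fold change was 1.70 (SE 0.36, edgeR adjusted p = 0.00431). Myeloid-like cells were higher in each tumour, and progenitor-like cells of tumour 2 were above the myeloid-like cells of tumours 1 and 4.

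Rpl35a, a large-subunit protein, had 3091 and 1792 CPM, 5185 and 2824, and 3634 and 3092 in tumours 1, 2 and 4 (log2 fold change 1.20, adjusted p = 0.0241). Rps6, the small-subunit protein that S6 kinase phosphorylates downstream of mTOR, had 2474 and 1886 CPM, 3329 and 2054, and 2717 and 1749 (1.12, adjusted p = 0.0183). Rps20 had 2323 and 1705, 2433 and 1703, and 1866 and 1499 CPM (0.96, adjusted p = 0.0379). Rpl22, treated below with its paralogue, was the fifth (1.14, SE 0.26, adjusted p = 0.00792). All 5 were higher by CPM in each of the 3 tumours.

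Rps29 kept its call in 16 of 19 alternatives, Rpl22 and Rps6 in 14, Rpl35a in 12 and Rps20 in 10. By library size alone 1 of the 84 was called higher (9.49% of all genes); 0 were called in a fit of the 2 classes alone (9.29%) or without tumour 1 (9.65%), and without tumour 2 13 were (15.3%). The myeloid-like cells of tumours 1 and 4 also held progenitor markers at 1571 and 1691 CPM summed, against 3035 and 3618 in the progenitor-like cells, while those of tumour 2 held 144 against 4847; the part of this in the differences between tumours was not tested.

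For 2 paralogue pairs, the partners lay on opposite sides of progenitor-like cells by CPM in myeloid-like cells. Rpl22 had 859 CPM in myeloid-like against 593 in progenitor-like cells of tumour 1, 1094 against 736 for tumour 2, and 785 against 482 for tumour 4. Rpl22l1 went the other way by CPM, with 1390 and 2038, 955 and 1243, and 1207 and 1857. Progenitor-like cells thus had 3.44, 1.69 and 3.86 Rpl22l1 UMIs for each Rpl22 UMI in tumours 1, 2 and 4, and myeloid-like cells 1.62, 0.873 and 1.54. This ratio does not depend on scaling. The fitted change of Rpl22l1 itself was 0.05 (adjusted p = 0.94), and the difference between the pair was not tested.

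In oligodendrocyte-like cells the Rpl22l1 to Rpl22 ratio was 1.04 in tumour 2 and 3.28 in tumour 4, below the progenitor-like values of the same tumours. In cycling cells it was 3.84 in tumour 1 and 4.35 in tumour 4, above them. Rps27l, a paralogue of Rps27 that p53 is known to induce, had 0.302, 0.140 and 0.437 UMIs for each Rps27 UMI in progenitor-like cells and 0.213, 0.0338 and 0.247 in myeloid-like cells. By CPM in myeloid-like against progenitor-like cells, Rps27l stood at 751 against 914, 251 against 577 and 622 against 945 (adjusted p = 0.68). Rps27 stood at 3521 against 3029, 7414 against 4114 and 2521 against 2163 (adjusted p = 0.0731). Rpl36al had 0.414 UMIs for each Rpl36a UMI in progenitor-like and 1.01 in oligodendrocyte-like cells of tumour 2, and 0.497 and 0.584 in tumour 4; no test was made.

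**Figure D5:**
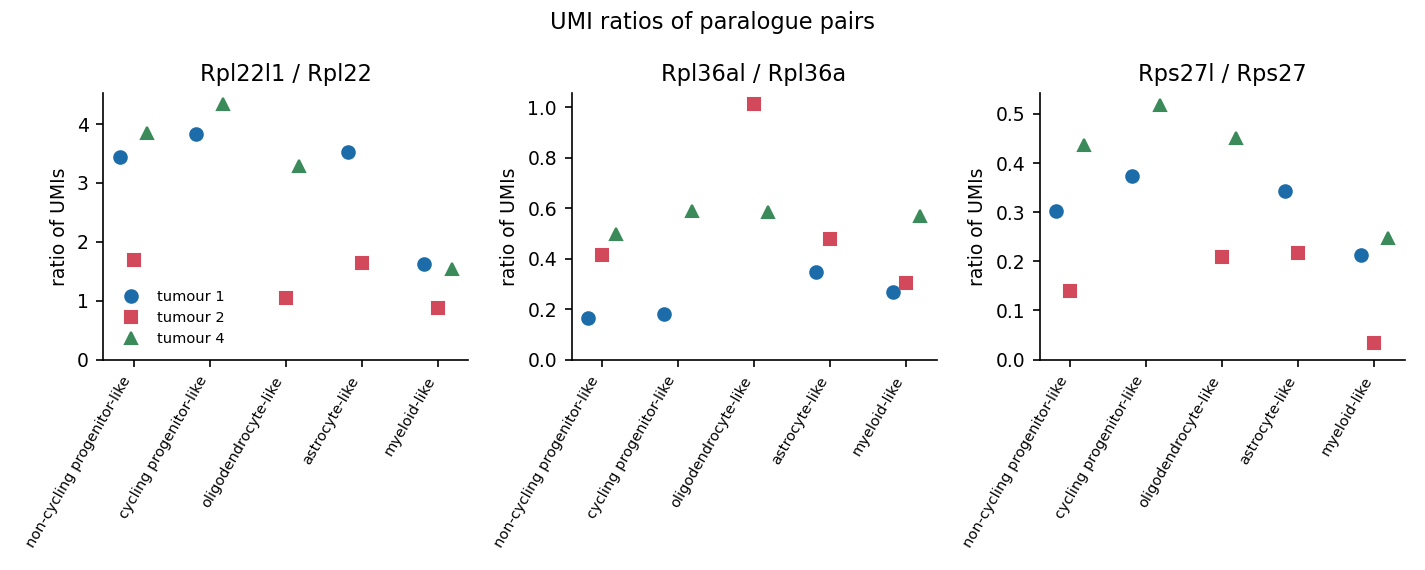
Ratio of UMIs of a paralogue to those of its partner (vertical axis, from 0) in each class and tumour, for Rpl22l1 over Rpl22, Rpl36al over Rpl36a and Rps27l over Rps27. In myeloid-like cells Rpl22l1 over Rpl22 lies between 0.873 and 1.62, below the progenitor-like value of the same tumour in each of the 3.

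Rpsa had a lower CPM in myeloid-like cells of every tumour, 2814 against 3632, 1484 against 2127 and 2185 against 3262, with a fitted value of 0.03 (adjusted p = 0.95). Rps19bp1 stood at 51.65 against 85.1, 26.1 against 91.0 and 55.8 against 77.8 CPM (-0.48, adjusted p = 0.238). Rpl7l1 stood at 62.9 against 96.8, 33.9 against 65.0 and 40.5 against 56.9 CPM (-0.17, adjusted p = 0.69). None of the 3 passed the test. Among the stalk genes Rplp1 stood at 5838 against 5497, 5849 against 3464 and 4963 against 4720 CPM (0.87, adjusted p = 0.11), and Rplp0 at 4414 against 5811, 3308 against 2865 and 3923 against 4709 (0.40, adjusted p = 0.452).

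Medians of the 2 subunits lay close to each other. In the fit, large-subunit and small-subunit symbols had medians of -1.07 and -1.05 in oligodendrocyte-like, -0.65 and -0.68 in astrocyte-like, 0.02 and 0.02 in cycling and 0.62 and 0.64 in myeloid-like cells. Rpl UMIs for each Rps UMI were 1.42, 1.42 and 1.53 in progenitor-like cells of tumours 1, 2 and 4, and 1.35, 1.33 and 1.43 in myeloid-like cells, lower in each tumour. In oligodendrocyte-like cells the ratio was 1.46 in tumour 2 and 1.52 in tumour 4.

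Other genes of the translation pathway were read from lists. Mitochondrial ribosomal proteins, which serve the separate ribosome of that organelle, had 76 of 77 genes tested and 0 called in any class by edgeR, with medians of -0.01 in oligodendrocyte-like, -0.22 in astrocyte-like, 0.16 in cycling and -0.12 in myeloid-like cells. Of 17 translation factors and related genes known for oligopyrimidine tracts, 2 were lower in oligodendrocyte-like cells, Eif4b (log2 fold change -1.14, adjusted p = 0.0313) and Hnrnpa1 (-1.75, adjusted p = 0.012), and 0 were called in the other classes; their median in oligodendrocyte-like cells was -0.97. Of 55 ribosome biogenesis genes, Bop1 was higher (1.04) and Rrp15 lower (-1.38) in oligodendrocyte-like cells and Wdr12 lower (-0.83) in myeloid-like cells, all by edgeR at adjusted p = 0.0482, 0.0364 and 0.0466. The median of that list in oligodendrocyte-like cells was -0.42.

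Of 13 genes of the Myc family and of mTOR signalling, which act on ribosome production, Myc was lower in oligodendrocyte-like cells (-1.79, edgeR adjusted p = 0.0119) and in myeloid-like cells (-0.98, adjusted p = 0.0462). Mycl was also called lower in both, although its CPM in oligodendrocyte-like cells was higher in 1 of the 2 tumours. Among ribosomal proteins outside the symbol rule, Fau, which encodes a small-subunit protein fused to a ubiquitin-like one, was higher in myeloid-like cells (1.68, adjusted p = 0.00885) and in all 3 tumours. Of 13 immediate early and dissociation genes, 7 were higher in myeloid-like cells, Hspa1b the most (2.76), and 4 were lower in oligodendrocyte-like cells; their part in the ribosomal protein values was not tested. Across cells of the progenitor-like class, Spearman's rho of the ribosomal protein share with the mitochondrial share was -0.06, -0.32 and -0.67 in tumours 1, 2 and 4, as a description over cells that share a library and in which the shares sum with others to a whole.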

How the data were processed

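The authors deposited 1 table of raw UMI counts per tumour, with genes in rows and cell barcodes in columns; all values come from these counts. The submitters' processing notes name Cell Ranger 1.3.0, STAR 2.5.1 and mm10; how barcodes were kept as cells is not stated there or in the labels. The 84 genes and the gene lists were chosen with earlier results of these data known, and limits for cluster names were chosen with marker levels in view.

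Cells with at least 500 genes, at most 20% mitochondrial and at most 10% haemoglobin UMIs were kept; the shallowest barcodes of tumours 1, 2 and 4 had 4958, 2897 and 4316 UMIs. Scrublet called 0, 7 and 0 doublets and was taken not to have worked, so no cell was left out for it. Each tumour was clustered alone in scanpy 1.11.5 (2000 variable genes without the ribosomal protein genes, 30 components, 15 neighbours, Leiden resolution 1). Cycling cells had at least 5 UMIs of 53 cycling genes after thinning to 2000 UMIs outside the ribosomal protein genes, and non-cycling cells at most 1. Myeloid-like cells were taken in all phases. Counts were summed by tumour and class (20 cells or more) and fitted with edgeR 4.0.16 in R 4.3.3 (TMM, quasi-likelihood test, tumour as a block), adjusted by Benjamini-Hochberg over 13092 genes. Astrocyte-like cells came from tumours 1 and 2, oligodendrocyte-like from 2 and 4 and cycling from 1 and 4, so this fit is unbalanced. DESeq2 1.42.0 was an alternative. The fits were tested on simulated data.

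Named genes were the 8 widest and 4 narrowest between tumours, up to 8 called in each direction per class and moving the same way in every tumour (or the 4 with the largest value where none was called), and the stalk genes, Rpsa, the paralogues with their partners, Rpl5, Rpl11, Rps27a and Rps19bp1. Copies were found with blastn 2.17.0 on GENCODE transcripts of GRCm38, the same build as mm10. Promoter bases come from RefSeq. No column of another series was present.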

Additional observations from a re-analysis of the deposited data

Results flagged for a closer look

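UMIs on near-identical copies of ribosomal protein genes lie outside the 84 genes described above and were a signal in rows that no comparison used. Relative to the set's own UMIs they amounted to 4.73%, 5.14% and 0.909% for tumours 1, 2 and 4, with all UMIs of Madd, Flt3l and Wdr89 counted in. No tumour-free control was at hand to set them against.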

How the results depend on the processing

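All 59 alternatives run for levels by tumour were rated as the same. With 1 library a tumour, that rating rests on no replicate of a tumour. At resolution 0.5 the share in non-cycling progenitor-like cells was 27.7%, 17.7% and 22.3% in tumours 1, 2 and 4. The main setting gave 28.2%, 20.3% and 25.3%. The mean share difference of cycling from non-cycling progenitor-like cells (-2.11 points) became 0.12 with clusters at resolution 0.5, where tumour 2 also entered (1.23 points); tumours 1 and 4 alone gave -0.43. It was -1.62 at resolution 2, -1.07 with clusters made with ribosomal protein genes, -1.59 with no filter on cells, -1.26 with a class per cell from marker UMIs and -1.49 with clusters named by marker level alone. The oligodendrocyte difference (-11.3 points) was -8.44, -6.44, -10.3, -2.98 and -10.4 under resolution 0.5, resolution 2, clusters made with ribosomal protein genes, class per cell and marker level alone; class per cell has no progenitor-like class in tumour 2, so -2.98 is over tumours 1 (-5.31) and 4 (-0.65), not 2 and 4. It was -12.2 with no mitochondrial UMIs in the denominator. The myeloid difference (1.38 points) was -1.95 without tumour 2, and -1.42 with class per cell, which is also over tumours 1 and 4. The astrocyte difference (-6.79 points) was -10.8, -11.3 and -10.1 at resolution 0.5, at resolution 2 and with no filter on cells, all from tumour 1 alone, since tumour 2 then had no such class.

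Counts of the 84 genes called are given here with the share of all genes called the same way in brackets. Lower in oligodendrocyte-like cells were 5 (3.82%) in the main fit, 31 (5.32%) by DESeq2 and 64 (2.3%) by library size alone. With no filter on low counts there were 54 (5.25%), and in a fit of the 2 classes 69 (7.04%). There were 2 with scaling from other genes (4.51%), without the highest Scrublet scores (5.23%) and by marker level alone (3.31%). Clusters made with ribosomal protein genes gave 1 (5.12%). They numbered 0 with no tumour block (no replicate block, 0.573%), class per cell (0.33%) and resolution 0.5 (5.86%) or 2 (0.764%). The count was also 0 with no filter on cells (2.48%). With no thinning for the cycling call the class had 1 sum, and the set's median log2 fold change was -1.21. Higher in myeloid-like cells were 5 (14.2%) in the main fit, 10 (14.2%) by DESeq2 and 9 (10.8%) with no low-count filter. Clusters made with ribosomal protein genes gave 17 (17%), and leaving out the highest Scrublet scores 11 (13.5%). There were 3 with no thinning (12.3%), 2 with class per cell (15.6%) and 1 by library size alone (9.49%) or no tumour block (8.79%). A fit of the 2 classes gave 0 (9.29%). The like fit for cycling cells called 8 genes lower (9.52%). The cause of these changes was not tested.

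Without each tumour in turn, calls ranged from 0 to 80 lower in oligodendrocyte-like cells, 0 to 77 lower in astrocyte-like, 0 to 13 higher in myeloid-like and 0 to 1 lower in myeloid-like; share differences ranged from -11.9 to -10.7 (oligodendrocyte), -10.2 to -3.39 (astrocyte), -2.41 to -1.81 (cycling) and -1.95 to 3.05 points (myeloid). The upper ends for oligodendrocyte-like and astrocyte-like cells both come from the fit without tumour 2. Each of these classes then has 1 sum, so its spread cannot be measured and these counts are no measure of support. The set's medians there were -0.94 and -0.92, against -0.22 and -0.18 over all genes tested. The upper myeloid counts, also without tumour 2, stood beside 15.3% of all genes higher and 5.93% lower. Where a class was left with 1 library, it was assumed to vary like the other classes. The 10 called genes kept their direction in 19 alternatives each. Counting each gene in each alternative, fits with 1 sum of a class among them, the call was lost 83 times. Naming by marker level alone and the adding of copies were chosen after the data had been seen. Class per cell gave no value for astrocyte-like cells. Alternatives that change the classes thus also change which tumours enter a comparison.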

Other observations

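A cluster of 20 T or NK-like cells in tumour 2 (led by Xcl1, Gzmb and Nkg7) had the highest ribosomal protein share of any named class, 40.3% of UMIs (exact 95% interval 40.0 to 40.5). Endothelial-like cells of the same tumour, 12 in all, had 15.2%, and cells of 2 clusters named neuroblast-like had 17.5%. The larger, of 54 cells (17.1%), was led by Top2a, Ube2c and other cell cycle genes, with no neuroblast marker among its leading genes. The other, of 37 cells (18.4%), had Dlx1, Sp8 and Dcx among them. All these classes occurred in tumour 2 alone. Apart from the pool of all neural clusters, which took in the cells named neuroblast-like, they entered no comparison.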
